A study of Mus musculus with 4 samples.

Results

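Endothelial receptors, junction proteins and their transcription factor were examined in ribosome profiling (Ribo-seq) data from cultures of primary mouse myoblasts. The set holds 10 of the 55573 genes in the deposited table. They were listed by name as markers of endothelial cells, with earlier results of these data known, and the list uses no cutoff on measured values. The genes are Cdh5, Pecam1, Kdr, Flt1, Tek, Tie1, Eng, Vwf, Emcn and Erg. Ribo-seq counts the mRNA fragments that ribosomes shield from nuclease, so a level reflects both how much of an mRNA is present and how densely ribosomes sit on it. The cells were obtained by enzymatic digestion of hind-limb muscle of 3-week-old mice, were grown with FGF and were collected as proliferating myoblasts on day 2. There were 2 libraries labelled WT and 2 labelled eIF5A knockout (KO), and all were treated with cycloheximide, which arrests elongating ribosomes. According to the study, the KO mice carried Pax7 CreERT2/+ and floxed eIF5A alleles and received tamoxifen, and the WT animals were littermates. Whether those littermates carried the Cre allele or the floxed allele was described in different ways for other experiments and was not stated for these libraries. Cre is thus driven from Pax7, a gene of muscle stem cells, and not from an endothelial gene. The preparation was filtered and washed, and no sorting step was named for it. Neither the number of mice per library nor whether replicates came from separate mice was given, so the spread between replicates may be technical.

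Endothelial cells line blood vessels, and in skeletal muscle the capillaries run beside the fibres and the satellite cells. Their cells are held together by VE-cadherin (Cdh5) and PECAM-1 (Pecam1), and they sense growth factors of the VEGF family through VEGFR2 (Kdr) and VEGFR1 (Flt1) and angiopoietins through Tie2 (Tek) and its relative Tie1. Endoglin (Eng) is a co-receptor for BMP and TGF-beta ligands, endomucin (Emcn) is a sialomucin of the cell surface, von Willebrand factor (Vwf) is a secreted clotting protein, and Erg is an ETS-family transcription factor that keeps endothelial genes on.

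The libraries held 642429 to 704006 reads assigned to genes. Of these, protein-coding genes took 41.5% and 33.9% in WT replicates 1 and 2, against 65.4% and 59.2% in the KO-labelled libraries. The deposited levels were scaled with denominators of 602863 and 471136 in WT and of 906990 and 807705 in the KO-labelled libraries. Read counts below are unscaled, so a higher count in the KO-labelled libraries need not be a higher level. Eif5a, the targeted gene, had 50 and 73 reads in WT against 130 and 114 in the KO-labelled libraries. Its levels of 34.9 and 65.2 RPKM (reads per kilobase of gene, brought to one library size) in WT lay on both sides of the 60.3 and 59.4 RPKM of the other group, so the targeted gene did not separate the groups and every direction below is between libraries as labelled. The label of the cells was checked as well. Of 11 myogenic markers, all had reads in at least 3 libraries, and their sum was 0.281% and 0.207% of protein-coding reads in WT and 0.166% and 0.154% in the KO-labelled libraries. In this sum Sdc4 had 134 and 118 reads in WT against 206 and 208, and Itga7 111 and 46 against 218 and 58. Vcam1, added with its values known, had 29 and 49 against 161 and 93. Sdc4, Itga7 and Vcam1 are also made by other cells, so the sum is not of muscle cells alone. Pax7, the defining gene of satellite cells, had 30 and 10 reads in WT against 5 and 7 in the KO-labelled libraries. Myod1 was at 139.9 and 117 RPKM in WT and at 48.6 and 79.8 RPKM in the KO-labelled libraries, without overlap.

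All 10 endothelial genes had more than 3 reads, the floor used here for a level distinct from 0, in each library. Together they had 500 and 382 reads in WT replicates 1 and 2 and 1013 and 729 reads in the KO-labelled libraries. As a share of protein-coding reads this was 0.186% (95% Wilson interval 0.170% to 0.203%), 0.176% (0.159% to 0.194%), 0.220% (0.207% to 0.234%) and 0.189% (0.176% to 0.204%), in that order. The shares in the KO-labelled libraries lay above those in WT, by a ratio of 1.13 between the group means. The interval of replicate 1 labelled KO lay above those of both WT libraries, and that of replicate 2 overlapped them. With 2 against 2 libraries an exact permutation test cannot give a p-value below 0.333, so this order was not tested. Without Kdr the ratio of the shares was 1.09 and the groups overlapped. On the summed RPKM scale the groups were apart with Kdr (ratio of 1.21) and without it (ratio of 1.19). In such bulk samples a different number of endothelial cells and a different number of footprints per endothelial cell cannot be told apart.

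Cdh5 had the highest level of the set, with 71.0 and 63.6 RPKM in WT and 87.1 and 68.0 RPKM in the KO-labelled libraries. Its mean of 72.5 RPKM was above that of 97.6% of the protein-coding genes tested. It was 8.37 and 17.6 times the level of Pax7 in the WT libraries, per length of gene, and 0.508 and 0.542 times the level of Myod1, the transcription factor of activated satellite cells. Eng (mean 34.9 RPKM), Pecam1 (21.8 RPKM) and Erg (16.4 RPKM) came next, above 94.0%, 89.5% and 85.2% of protein-coding genes. Each of these 4 genes was apart from the next in rank, with its lowest library above the highest library of the next gene. Tie1 (10.4 RPKM), Tek (7.72 RPKM), Flt1 (6.46 RPKM), Kdr (6.37 RPKM) and Emcn (5.56 RPKM) followed, and the ranges of neighbours in this order overlapped over the 4 libraries. Vwf was lowest, at 0.883 RPKM, and did not overlap with Emcn.

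**Figure D1:**
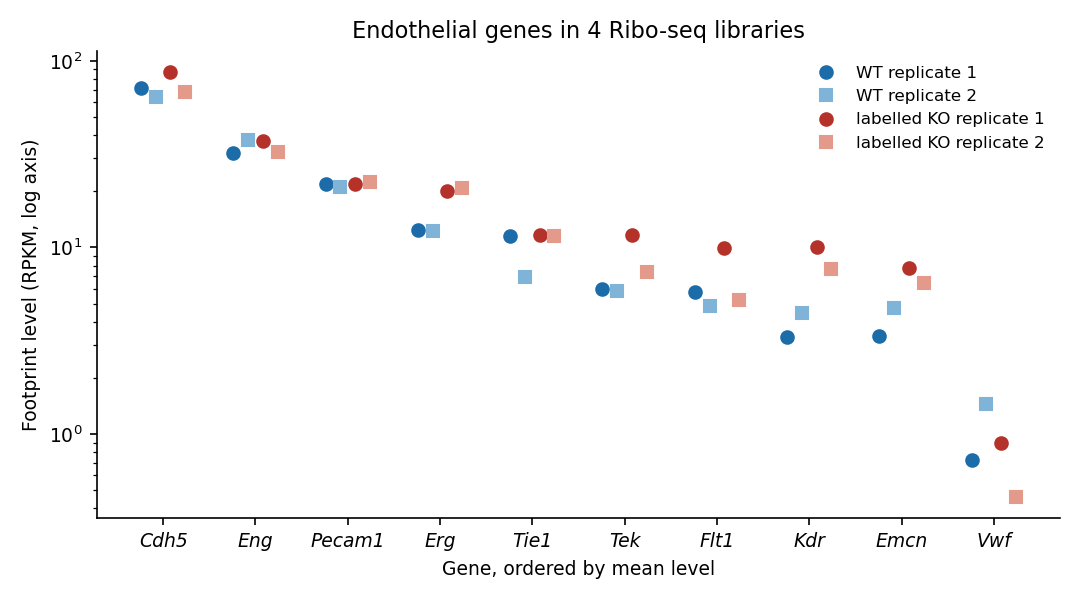
Footprint level of the 10 endothelial genes in each of the 4 libraries, in RPKM on a log axis, with genes ordered by their mean level. Each point is a library. Both KO-labelled libraries (red) lay above both WT libraries (blue) for Erg by a wide gap, for Kdr, Emcn and Tek, and by small gaps for Pecam1 and Tie1, while the points of Cdh5, Eng, Flt1 and Vwf were mixed.

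The order depends on the length used. RPKM divides by all exons of a gene, whereas footprints lie mainly on its coding part, and the coding part ranged from 14.5% of the gene length for Emcn to 71.5% for Tek. Per kilobase of the longest coding sequence, a scale chosen after the data were seen, Emcn moved from rank 9 to rank 5 with 27.9 ± 6.52 (SD, n = 2) in WT and 48.9 ± 6.53 in the KO-labelled libraries, next to Erg with 29.3 ± 0.328 and 48.4 ± 1.14. Tek moved from rank 6 to rank 9. Cdh5, Eng, Pecam1 and Erg kept ranks 1 to 4, and Vwf stayed last.

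The coding sequences of 3 of the 10 genes hold a run of 3 proline codons. They are shown because eIF5A, the factor targeted in this study, is known to help ribosomes through consecutive prolines. Each line gives the coding strand, 5′ to 3′, of the longest coding transcript in GENCODE vM21 (GRCm38), with 6 codons on either side in lower case and the proline codons in capitals.
Flt1: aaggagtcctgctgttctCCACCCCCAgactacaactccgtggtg
Tek: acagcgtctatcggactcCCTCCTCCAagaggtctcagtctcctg
Erg: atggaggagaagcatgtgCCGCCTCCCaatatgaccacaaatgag
In Flt1 the run covers residues 1318 to 1320 of 1333, close to the end of the protein, in Tek residues 542 to 544 of 1123, and in Erg residues 121 to 123 of 486. Among the 9847 protein-coding genes tested with a coding sequence, 25.8% held at least 3 prolines in a row. Their median log2 difference, labelled KO minus WT, was -0.13, against 0.12 for the genes without such a run. The median also fell with coding GC content, from 0.38 in the lowest decile to -0.48 in the highest. Proline codons start with CC, and the part of GC content in this contrast was not tested. The log2 differences of Flt1 (0.39), Tek (0.57) and Erg (0.68) were all above 0, as were those of all 9 endothelial genes tested. The values are sums over whole genes and give no position of a ribosome within the runs.

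The 2 groups were compared to ask whether footprints on these genes differed when eIF5A was targeted. Vwf was below the filter of a mean of at least 1 RPKM, so 9 of the 10 genes were among the 11363 genes tested with limma on log2(RPKM + 1). None passed an adjusted p-value of 0.05, where 0.0088% of all genes passed as higher and 0.0968% as lower in the KO-labelled libraries. At an unadjusted p-value under 0.05 there was 1 of the 9 endothelial genes in limma, Kdr, where 7.32% of all genes were under it, so the count was near the background. With voom on the recovered reads it was also 1, against 11.1% of all genes, and 0 passed after adjustment, against 0.695%. Kdr also passed the criterion of a 2-fold change at an unadjusted p-value under 0.05, which 2.67% of all genes passed as higher and 4.29% as lower. Both KO-labelled libraries lay above both WT libraries for 6 of the 9 genes, namely Kdr, Erg, Emcn, Tek, Tie1 and Pecam1, where the same was true of 20.1% of all genes, and for 0 of 9 they lay below both, as for 20.3% of all genes. The median log2 difference was 0.39 over the 9 genes and 0.00026 over all genes tested. The median of the 9 was 0.27 without the KO-labelled replicate 1 and 0.66 without replicate 2 of that group. All 9 fitted differences were above 0, but those of Eng and Pecam1 were 0.0018 and 0.046 and turned negative when reads were scaled to protein-coding totals (-0.11 and -0.064). With that scaling, where the median of all genes was -0.089, the groups were apart for 4 genes, against 16.5% of all genes as higher. Scaling to all gene-assigned reads instead moved the median of all genes to 0.47 and that of the 9 to 0.92. On that scale 4 of the 9 genes passed the 2-fold criterion as higher and 0 as lower, beside 13.9% and 1.48% of all genes. The 9 genes share their libraries and may share their cells of origin, so they are not 9 independent observations.

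**Figure D2:**
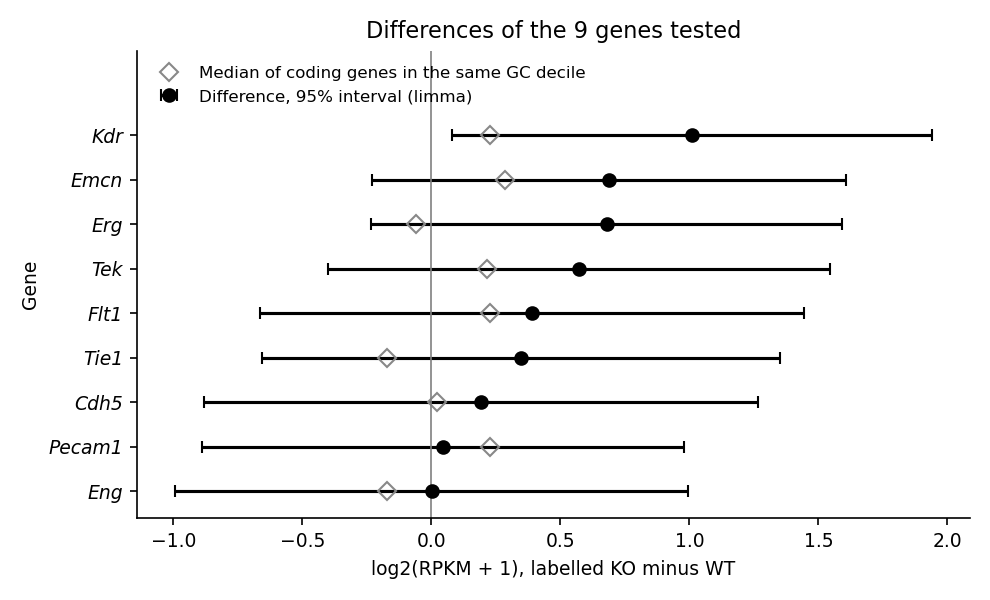
Difference in log2(RPKM + 1) between the 2 libraries labelled KO and the 2 WT libraries for the 9 endothelial genes tested. Black points are limma estimates with 95% intervals, and grey diamonds are the median difference of protein-coding genes in the same decile of coding GC content. The interval of Kdr (0.081 to 1.94) lay above 0 before adjustment, and the other 8 intervals held 0.

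Among the VEGF receptors, Kdr, the main signalling receptor for VEGF-A, had 18 and 19 reads in WT against 82 and 56 in the KO-labelled libraries. The levels were 3.31 and 4.47 RPKM in WT and 10.0 and 7.68 RPKM in the KO-labelled libraries, so the groups did not overlap and the ratio of their means was 2.28. The log2 difference was 1.01 ± 0.38 (SE), and limma gave it an unadjusted p-value of 0.0376 (0.672 after adjustment). It did not pass the adjusted threshold, and its adjusted p-value ranged from 0.289 to 0.944 over the alternatives. Without WT replicate 1 and without the library labelled KO replicate 1 the difference was 0.84 each time, and with any 1 library left out Kdr did not pass the 2-fold criterion with its p-value. It also missed that criterion in limma with protein-coding totals (p-value of 0.0504), with no filter on low values (0.0557), with a minimum mean of 5 RPKM (0.0649) and after correction for GC content and length (a log2 difference of 0.97). Kdr (ENSMUSG00000062960) lies on chromosome 5 (GRCm38), 75932827 to 75978458, minus strand, and its footprints were counted over its exons.

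Flt1 encodes a receptor that binds VEGF-A tightly and, as a soluble form from the same gene, acts as a decoy. Counts per gene cannot tell the forms apart. It had 47 and 31 reads in WT against 122 and 57 in the KO-labelled libraries. Its level in replicate 1 labelled KO, 9.96 RPKM, stood above the other 3 libraries, which lay between 4.87 and 5.77 RPKM. The log2 difference was 0.39 ± 0.43 (SE; adjusted p-value of 0.773 in limma), and leaving out the KO-labelled replicate 1 gave -0.019. Kdr relative to Flt1, per length of gene, was 0.573 and 0.917 in WT and 1.01 and 1.47 in the KO-labelled libraries, again without overlap. Of the reads of both genes, Kdr gave 27.7% (Wilson interval 18.3% to 39.6%) and 38.0% (25.9% to 51.8%) in WT. In the KO-labelled libraries it gave 40.2% (33.7% to 47.0%) and 49.6% (40.5% to 58.6%). The intervals of both WT libraries overlapped that of replicate 1 labelled KO. Only the lower WT interval lay below that of the other KO-labelled library.

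The ligands of these receptors were read in the same libraries. Of the 10 genes in the list of VEGF, angiopoietin and BMP9 ligands, 6 were tested, and 0 rose or fell at the adjusted threshold. By the 2-fold criterion 1 was lower and 0 were higher, beside 4.29% and 2.67% of all genes, and the median log2 difference was -0.030. The 3 with most reads were Angpt2, Vegfa and Pgf. Angpt2, an antagonist of Tie2 made by endothelial cells, had 96 and 73 reads in WT against 228 and 168 in the KO-labelled libraries (log2 difference of 0.53, adjusted p-value of 0.717 in limma). Vegfa had 75 and 68 reads against 246 and 97 (0.42, adjusted p-value of 0.800), and Pgf, a ligand of VEGFR1 alone, had 87 and 32 against 90 and 53 (-0.29, adjusted p-value of 0.868). Vegfb, another ligand of VEGFR1, was the one past the 2-fold criterion, with 10 and 8 reads in WT against 3 and 4 in the KO-labelled libraries (log2 difference of -1.70, unadjusted p-value of 0.00400, adjusted p-value of 0.538 in limma). The library labelled KO replicate 1 was at the floor of 3 reads for it.

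Tek and Tie1 form the angiopoietin receptor pair, in which Tie1 binds no angiopoietin by itself and modulates Tie2. Tek had 17 and 13 reads in WT against 50 and 28 in the KO-labelled libraries. The WT levels were 5.98 and 5.86 RPKM, and the levels labelled KO, 11.7 and 7.36 RPKM, were both above them, with replicate 1 the highest of the 4. Tek differed on the log2 scale by 0.57 ± 0.40 (SE; adjusted p-value of 0.697 in limma), and leaving out the KO-labelled replicate 1 gave 0.27. Tie1 had 34 and 16 reads in WT against 52 and 46 in the KO-labelled libraries, or 11.5, 6.91, 11.7 and 11.6 RPKM. WT replicate 2 was low and the other 3 libraries were nearly level. The log2 difference of Tie1, 0.35 ± 0.41 (SE), was 0.017 without WT replicate 2 and 0.67 without WT replicate 1. It was 0.63 after correction for GC content and length, Tie1 having the highest coding GC content of the set (58.3%). The ratio of Tek to Tie1 was 0.522 and 0.848 in WT and 1.00 and 0.635 in the KO-labelled libraries, with overlap.

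The junction genes Cdh5 and Pecam1 had ratios of the group means, KO-labelled over WT, of 1.15 and 1.03. Cdh5 (ENSMUSG00000031871, chromosome 8, 104101625 to 104144511, on the plus strand) showed 180 and 126 reads in WT against 332 and 231 in the KO-labelled libraries. The groups overlapped, since WT replicate 1 (71.0 RPKM) was above the library labelled KO replicate 2 (68.0 RPKM). In limma Cdh5 differed by 0.19 ± 0.44 (SE) on the log2 scale (95% interval -0.88 to 1.27, adjusted p-value of 0.898). The difference of Cdh5 was 0.017 without the KO-labelled replicate 1 and 0.37 without replicate 2 of that group. Pecam1, an adhesion molecule that platelets and leukocytes also carry, had 82, 62, 124 and 113 reads. Its levels were 21.8 and 21.1 RPKM in WT and 22.0 and 22.5 RPKM in the KO-labelled libraries. The log2 difference was 0.046 ± 0.38 (SE; adjusted p-value of 0.975 in limma), and although the groups did not overlap, the gap between them was smaller than the difference between replicates of either group.

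Proteins that connect these junctions to the cytoskeleton or share them were taken as a list of 23 genes, of which 20 were tested. None passed the adjusted threshold or the 2-fold criterion, and the median log2 difference was 0.20. The groups were apart with the KO-labelled libraries higher for 6 of the 20 genes and lower for 1, beside 20.1% and 20.3% of all genes. The 3 with most reads were Ctnnb1, which encodes the beta-catenin bound to cadherin tails, Gja1, a gap junction subunit, and Ctnna1, the alpha-catenin link to actin. Their log2 differences were 0.72, 0.75 and 0.77, with adjusted p-values of 0.697 in limma for each. Most of these genes are made by many cell types. Cldn5, the main claudin of endothelial tight junctions, was added with its values known. It had 63 and 111 reads in WT against 190 and 272 in the KO-labelled libraries, and the groups overlapped in RPKM.

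Eng had 78 and 72 reads in WT against 137 and 106 in the KO-labelled libraries, with mean levels of 34.9 ± 4.09 and 34.9 ± 3.46 RPKM (SD, n = 2). Eng differed by 0.0018 ± 0.40 (SE) on the log2 scale (95% interval -0.99 to 1.00, adjusted p-value of 0.999 in limma). The interval allows a change of up to about 2-fold in either direction. Endoglin is also made by fibroblasts and other mesenchymal cells. Eng shares 61 exon bases with Fpgs, which lies on the other strand and had 22 reads in all. Strand use in counting was not stated.

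Receptors that work with the set were taken as 13 partner genes, of which 12 were tested. None passed the adjusted threshold, and the median log2 difference was 0.13. By the 2-fold criterion 1 was higher and 0 were lower, beside 2.67% and 4.29% of all genes. The gene past the criterion was Itgav, the integrin alpha V chain, with 77 and 59 reads in WT against 340 and 207 in the KO-labelled libraries (log2 difference of 1.23, unadjusted p-value of 0.0240, adjusted p-value of 0.665 in limma). Itgb1, the integrin beta 1 chain, had a log2 difference of 1.07 (unadjusted p-value of 0.0846) and Plxnd1, a semaphorin receptor, one of -0.83 (unadjusted p-value of 0.107). Integrin chains are made by nearly all adherent cells. Acvrl1, the BMP9 receptor that binds with endoglin, had 15 and 13 reads in WT against 35 and 35 in the KO-labelled libraries, a log2 difference of 0.57 (adjusted p-value of 0.697). Its ligands Gdf2 and Bmp10 had 0 reads in every library. Acvrl1, Gdf2 and Bmp10 were added with their values known.

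Emcn had 11 and 12 reads in WT against 38 and 28 in the KO-labelled libraries, or 3.37 and 4.71 RPKM against 7.75 and 6.41 RPKM. The groups did not overlap. Emcn differed on the log2 scale by 0.69 ± 0.37 (SE; adjusted p-value of 0.690 in limma). Emcn has the lowest coding GC content of the set, 44.8%, and protein-coding genes of the same GC decile had a median log2 difference of 0.29. After correction of every library for GC content and length of the coding sequence, the difference of Emcn was 0.33. Vwf, which was not tested, had 7 and 11 reads in WT against 13 and 6 in the KO-labelled libraries. Its levels of 0.723, 1.45, 0.892 and 0.462 RPKM overlapped. Its transcript is made in large vessels and veins more than in capillaries, and platelets carry the protein.

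Erg had 26 and 20 reads in WT against 63 and 58 in the KO-labelled libraries. Replicates were close, with 12.4 and 12.2 RPKM in WT and 20.0 and 20.7 RPKM in the KO-labelled libraries, and the gap between groups was wider than the spread within either. In limma Erg differed by 0.68 ± 0.37 (SE) on the log2 scale (95% interval -0.23 to 1.59), and its unadjusted and adjusted p-values were 0.118 and 0.691. It stayed between 0.66 and 0.70 with any single library left out, and was 0.74 with the GC and length trend removed, where the median of all genes was 0.041. In the uncorrected fit protein-coding genes of its GC decile had a median of -0.060. Erg (ENSMUSG00000040732) lies on chromosome 16, 95359169 to 95586593, minus strand.

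Other transcription factors of the endothelial lineage were taken as a list of 23 genes, of which 20 were tested beside Erg. None passed the adjusted threshold or the 2-fold criterion. The median log2 difference was -0.29, with the KO-labelled libraries apart and higher for 1 of the 20 genes and apart and lower for 5, beside 20.1% and 20.3% of all genes. Ets1, an ETS factor of endothelial and other cells, had 119 and 116 reads against 205 and 174 (log2 difference of 0.00099), Ets2 had 86 and 58 against 198 and 137 (0.52), and Epas1, the hypoxia factor HIF-2 alpha, had 107 and 47 against 96 and 74 (-0.42). Fli1, a close relative of Erg added with its values known, had 13 and 2 reads in WT against 19 and 16 in the KO-labelled libraries. Its levels of 6.19 and 1.22 RPKM in WT and 6.01 and 5.68 RPKM in the KO-labelled libraries overlapped. Sox18, Sox7 and Sox17, added in the same way, had log2 differences of 0.0057, -0.66 and -0.48.

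A list of 30 other endothelial markers gave 27 tested genes and a median log2 difference of 0.14. None passed the adjusted threshold. By the 2-fold criterion 2 were higher, Selp and Gpihbp1, and 2 were lower, Robo4 and Ramp2. Selp, the adhesion receptor P-selectin, had 3 and 6 reads in WT against 55 and 15 in the KO-labelled libraries, and Gpihbp1, the capillary anchor of lipoprotein lipase, had 9 and 6 against 24 and 35. Robo4, a guidance receptor of endothelial cells, had 29 and 32 reads against 27 and 16, and Ramp2, a partner of the adrenomedullin receptor, had 11 and 14 against 6 and 10. Thbd, Procr and Egfl7 had most reads. Thbd, the thrombomodulin gene, had 433 and 576 reads in WT against 2028 and 1086 in the KO-labelled libraries (log2 difference of 0.89, adjusted p-value of 0.697 in limma), and Procr, the protein C receptor, had 248 and 265 against 599 and 544 (0.47, adjusted p-value of 0.768). Both are made by other cells too. Egfl7, a secreted endothelial protein, had 80 and 102 against 73 and 129 (-0.56, adjusted p-value of 0.734). Over the 99 related genes of these 5 lists, 85 were tested, 3 were higher and 3 lower by the 2-fold criterion, near the 2.67% and 4.29% of all genes, and the median log2 difference was 0.039.

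The make-up of the endothelial reads was compared within libraries, which needs no scaling between them. Cdh5 gave 36.0% and 33.0% of the reads of the 10 genes in WT and 32.8% and 31.7% in the KO-labelled libraries, and all 4 intervals overlapped. Kdr gave 3.60% (95% Wilson interval 2.29% to 5.62%) and 4.97% (3.21% to 7.64%) in WT and 8.09% (6.57% to 9.94%) and 7.68% (5.96% to 9.84%) in the KO-labelled libraries. The interval of WT replicate 1 lay below both of these and that of WT replicate 2 overlapped them. Erg gave 5.20% and 5.24% in WT and 6.22% and 7.96% in the KO-labelled libraries, and Emcn 2.20% and 3.14% against 3.75% and 3.84%. Eng went the other way, with 15.6% and 18.8% in WT and 13.5% and 14.5% in the KO-labelled libraries. So did Cdh5, Pecam1 (16.4% and 16.2% against 12.2% and 15.5%) and Vwf (1.40% and 2.88% against 1.28% and 0.823%). Shares of one total cannot all rise together. The intervals of Erg, Emcn, Eng, Pecam1 and Vwf overlapped between groups.

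**Figure D3:**
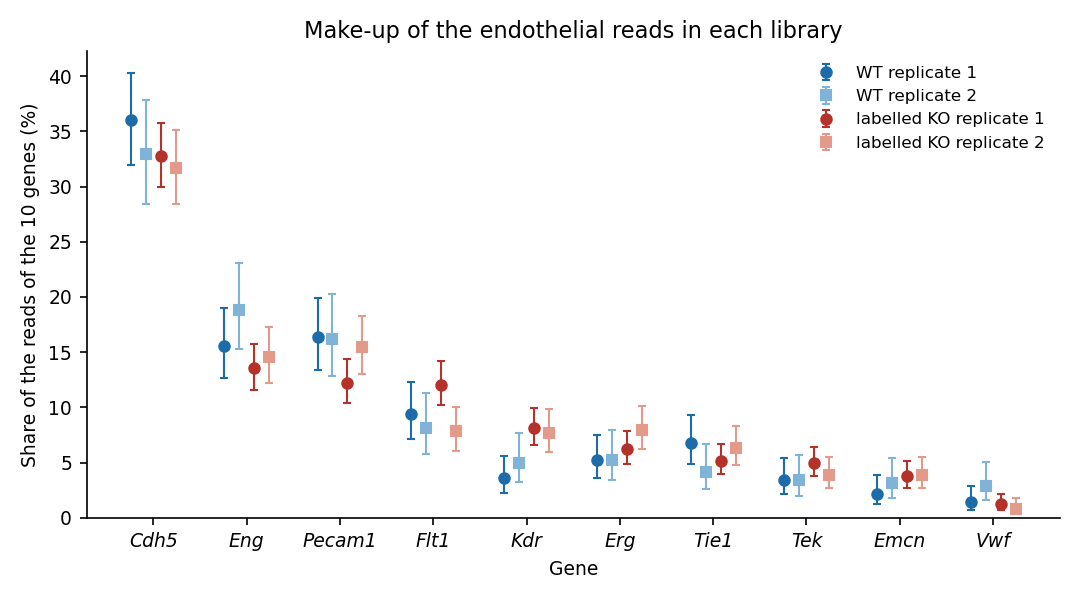
Share of each of the 10 endothelial genes in the reads of all 10, by library, with 95% Wilson intervals that cover counting error only. Cdh5 gave about a like share in each library, between 31.7% and 36.0%, and Kdr was at 3.60% and 4.97% in WT and at 8.09% and 7.68% in the KO-labelled libraries.

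Markers of the other cell types that such a culture can hold were read beside the endothelial genes. Fibroblast markers (14 genes, 1 at 0 in every library, Tcf21, added with its values known) were 0.844% and 0.507% of protein-coding reads in WT and 1.16% and 0.595% in the KO-labelled libraries. The groups overlapped, and replicate 1 was above replicate 2 in each. The same order held for the 10 endothelial genes and for the mural and myogenic markers. Of the 13 tested, 1 was higher by the 2-fold criterion (Postn, log2 difference of 1.39), beside 2.67% of all genes, and the median was 0.39. The leading genes were Dcn, Pdgfra and Col1a2, with log2 differences of 0.69, 0.73 and 0.39. Mural cell markers (10 genes, 9 tested) were 0.169% and 0.136% in WT and 0.123% and 0.117% in the KO-labelled libraries, so the groups did not overlap and the KO-labelled libraries were lower. The 23 endothelial transcription factors had the same order, with 0.260% and 0.229% in WT and 0.190% and 0.209% in the KO-labelled libraries, whereas the 10 endothelial genes had the opposite one. None of the mural markers was past the 2-fold criterion, and their median was -0.086. Pdgfrb, Acta2 and Anpep led with -0.086, -0.59 and 0.63.

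Leukocyte and platelet markers (15 genes, 8 tested) were between 0.0145% and 0.0239% of protein-coding reads with overlapping groups. Ptprc, a gene of all leukocytes added with its values known, had 5 and 0 reads in WT against 6 and 0 in the KO-labelled libraries. The platelet genes Gp9 and Gp1bb, added in the same way, were at 0 throughout. Ppbp and Itga2b, platelet genes also added so, had at most 2 reads per library. Pf4, another platelet gene, had 4 and 13 reads in WT against 12 and 12 in the KO-labelled libraries. Cd68, Pf4 and Adgre1 led this list. Adgre1 was higher and Lyz2 lower by the 2-fold criterion, beside 2.67% and 4.29% of all genes. The median was -0.27. Myogenic markers (11 genes, all tested) had a median of -1.03, and 5 of the 11 were lower by the 2-fold criterion, beside 4.29% of all genes: Des, Chrna1, Myog, Pax7 and Myf5. Myog had 82 reads in WT replicate 1 and 3, the floor, in WT replicate 2, against 1 and 2 in the KO-labelled libraries. Sdc4, Myod1 and Itga7 had most reads, with log2 differences of 0.035, -1.03 and -0.017. None of these genes of other cell types passed the adjusted threshold, where the smallest adjusted p-value in limma was 0.506. Cdh5 relative to Myod1 was 0.508 and 0.542 in WT and 1.79 and 0.852 in the KO-labelled libraries. The part of the makeup of the cultures in the differences of the endothelial genes was not tested.

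**Figure D4:**
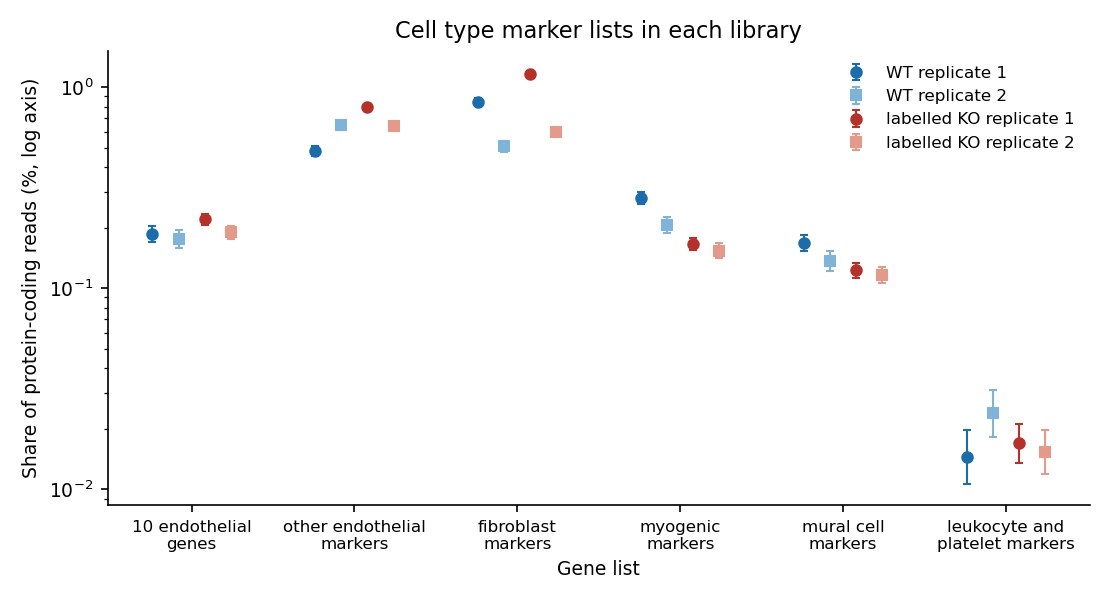
Share of protein-coding reads taken by lists of cell type markers in each library, on a log axis, with 95% Wilson intervals that cover counting error only. The 10 endothelial genes lay between 0.176% and 0.220%. Myogenic and mural markers were lower in both KO-labelled libraries than in both WT libraries. In both groups replicate 1 was above replicate 2 for fibroblast, myogenic and mural markers and for the 10 endothelial genes.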

How the data were processed

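The values deposited by the authors are RPKM in a table of 55573 genes with positions (GRCm38). Per the study, low-quality, rRNA and tRNA reads were dropped and adapters trimmed, and reads were aligned with TopHat2 and counted with HTSeq on Ensembl models. Treatment of multi-mapped reads and of strand was not given in the sources used here. RPKM times gene length, divided by the smallest such product of a library, gave whole reads for 100% of values (tolerance 0.001). The implied denominators (602863, 471136, 906990 and 807705) equal median-of-ratios scaling, so a shift common to most genes is removed.

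The main test was limma 3.58.1 (R 4.3.3, eBayes with trend) on log2(RPKM + 1) for 11363 genes with a mean of at least 1 RPKM, group as the only term, Benjamini-Hochberg adjusted. This scale understates changes of low genes. On simulated data its adjusted calls held more false ones than the nominal rate, a limit on the adjusted calls over all genes. Shares carry 95% Wilson intervals. Reads lack molecular identifiers, so intervals and the floor of 3 reads cover counting error only. Coding GC content and length came from GENCODE vM21, where 99.7% of identifiers matched. All 10 genes, Eif5a, the 3 genes with most reads of each list and list genes past a threshold were named by rule, and the text marks the others. The members and lists were chosen with earlier results of these data known. Alternatives were the pseudocount, filters, scaling, voom on recovered reads, a robust prior, protein-coding genes alone, the GC and length trend, the replicate number as a block, and leaving out each library.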

Additional observations from a re-analysis of the deposited data

How the results depend on the processing

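No endothelial gene passed the adjusted threshold in limma under any of the 16 alternatives. The 1 gene past 2-fold with an unadjusted p-value under 0.05, Kdr, became 0 without a filter, at a mean of at least 5 RPKM, with reads scaled to protein-coding totals, with the replicate block (limma p-value of 0.0552) and, at a log2 difference of 0.97, after correction for GC content and coding length, blocked or not. It became 4, all higher, with reads scaled to gene-assigned totals, where 13.9% of all genes passed as higher and 1.48% as lower. With 1 library left out it was 0 each time, and there limma assumes that the lone library of a group varies like the other group. Gene-assigned totals moved the median log2 difference of the endothelial genes from 0.39 to 0.92, where the median of all genes moved to 0.47, and the related genes past the same criterion from 6 to 16, of which 15 were higher. The count of related genes also depended on which library was left out. The share of all genes past the criterion in those fits was not taken, so no background stands beside that count. The groups were apart for 4 genes on protein-coding totals and with quantile normalization, where 16.5% and 22.8% of all genes were apart and higher. They were apart for 9 on gene-assigned totals, all higher (41.4% of all genes higher), and for 9 without WT replicate 1, 8 higher and 1 lower (34.9% and 36.1% of all genes). Emcn moved from rank 9 to 5 per kilobase of coding sequence, a scale chosen after the data were seen. Differences near 0 changed sign. Pecam1 was at -0.064 on protein-coding totals and -0.026 after the GC and length correction, and Eng at -0.11 on protein-coding totals, -0.044 with quantile normalization and -0.0025 with voom on recovered reads. With 1 library left out Eng ranged from -0.11 to 0.12 and Flt1 from -0.019 to 0.80. The cause was not tested. The replicate numbers are shared by the groups, but nothing ties the numbered libraries to each other, and the deviations of libraries with the same number correlated at 0.057 over the genes tested. The depth limits Emcn and Vwf most, with 89 and 37 reads over the 4 libraries.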
